A study of Mus musculus with 6 samples.

Results

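In hearts of apoE-deficient mice, with or without rosiglitazone, 116 probe sets for 109 genes gave less signal than in B6 hearts on every array. They include Apoe itself, a group of muscle fuel genes (Pdk4, Ucp3, Acot1, Plin5 and Txnip), red cell and heme genes (Alas2, Hbb-b2, Bpgm and Slc25a37), and receptors and channels such as Ramp1, Aplnr, Adra1b and Kcne1. A probe set is a group of short oligonucleotides on the array that together read 1 transcript. The probe sets were chosen by their signals on these arrays. Each had 1 gene symbol, a mean quantile-normalized signal of at least 100, and a highest apoE-deficient array at most 1/1.3 of the lower B6 array. Of 45101 probe sets, 34945 had 1 symbol, 14033 of these reached the signal minimum (8952 genes), and 0.827% of the 14033 met the rule. The opposite rule, all apoE-deficient arrays at least 1.3 times the higher B6 array, was met by 109 probe sets, 0.777%. Because the rule used the values of every array, differences of these 109 genes from B6 are given below as a description, with no test.

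The study measured total RNA of mouse hearts in 3 groups of 2 Affymetrix arrays, all of strain background B6 and all from mice 8 months old on a diet with 7% fat and 0.15% cholesterol. The treated group was apoE-deficient and received rosiglitazone, an antidiabetic agonist of the nuclear receptor PPAR gamma, at 30 mg/kg per day for 2 months from the age of 6 months, and the labels call these hearts failing. The untreated apoE-deficient group received nothing, and the B6 group was wild type and untreated. Sex, the part of the heart taken, and whether each array stands for 1 animal or a pool are not stated in the labels, so the spread between arrays may be technical and p-values measure only that spread. There was no treated B6 group.

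The deposited signals were not on 1 scale. Array brightness, as a 2%-trimmed mean, was lowest on the untreated apoE-deficient arrays (126 and 130), higher on B6 arrays (175 and 149) and highest on the treated arrays (341 and 263), so brightness cannot be told apart from group. All signals below are quantile-normalized linear signals unless called deposited. Arrays of a group correlated with r between 0.960 and 0.981 over probe sets. The 14 ventricular cardiomyocyte markers were all tested, and their summed signal was 190179 to 196678 on treated, 196918 to 199208 on untreated apoE-deficient and 203960 to 204926 on B6 arrays.

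ApoE is a protein of the lipoprotein particles that carry cholesterol and triglyceride, and it is the ligand by which cells take up remnant particles. The heart covers most of its energy need by burning fatty acids, and it stores a part of them in lipid droplets. Fatty acid loads switch on a set of genes through the PPAR nuclear receptors. PDK4, a kinase of that set, shuts off pyruvate dehydrogenase and so spares glucose. Heme, the iron-carrying group of hemoglobin and of the respiratory chain, is made from glycine by a chain of enzymes that ALAS2 opens in red cell precursors.

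How much signal was lost varied widely. The lower B6 array was above the highest apoE-deficient array by a median of 1.39-fold, and the difference was at least 2-fold for 8 probe sets, at least 1.5-fold for 33, and less than that for 83. Apoe stood far from the rest at 54.9-fold, and Pisd-ps3, a pseudogene, came next at 5.25-fold. With Apoe left aside, the group mean of the untreated apoE-deficient arrays was 18.4% to 75.1% of the B6 mean, with a median of 63.4%. On the treated arrays it was 14.4% to 75.8%, with a median of 60.9%.

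**Figure D1:**
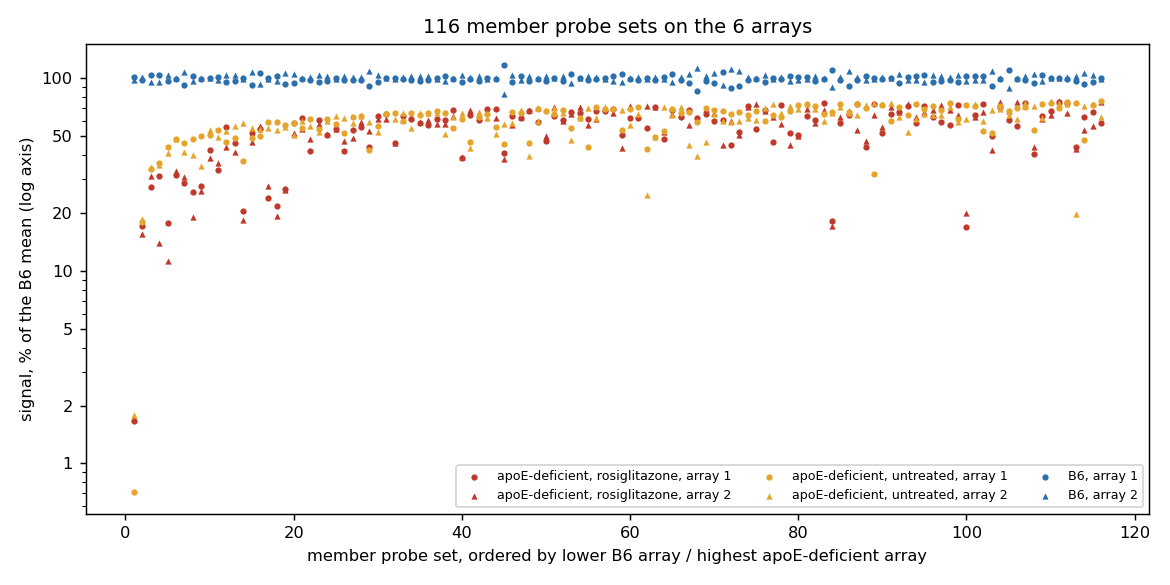
Signal of the 116 probe sets on each of the 6 arrays as a percentage of the B6 mean (log axis), ordered along the x axis from the largest to the smallest ratio of the lower B6 array to the highest apoE-deficient array. Colours mark the 3 groups and symbols the 2 arrays of each. Apoe lies alone near 1 to 2%, most other probe sets lie between 50% and 75%, and some treated arrays (red) and a few single untreated arrays (orange) fall well below that band.

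The choice of scaling decides which probe sets are included. Under array medians centred, 161 probe sets met the rule, 96 of them among the 116. Under trimmed-mean scaling the number was 131, with 103 shared. Under scaling to the 18 hybridization control probe sets it was 28, all among the 116, and on the deposited signals it was 11, of which 10 were shared. The rule was met under all 6 scalings by 9 probe sets of 8 genes: Apoe, Pisd-ps3, Ppp5c, Alas2, Pdk4, Lgals4, Ucp3 (both of its probe sets) and Ramp1. On the deposited signals, Pdk4 read 3170 and 2590 on treated, 1936 and 2012 on untreated apoE-deficient and 5493 and 4877 on B6 arrays, so it was lowest on the dimmest arrays and still below B6 on the brightest.

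The stretches of 250 bases before the start of transcription of Pdk4, Ucp3, Alas2 and Ppp5c are shown because these named genes met the rule under every scaling and are described at length below. They are from RefSeq (GRCm38.p6). Capitals mark matches, on either strand, to CCAAT, to the TATA box TATAAA, to the GC box GGGCGG, or to AGATAA, which was added after the data were seen. Ucp3 has no match to a searched motif.
Pdk4, chr6:5496279-5496528, minus strand: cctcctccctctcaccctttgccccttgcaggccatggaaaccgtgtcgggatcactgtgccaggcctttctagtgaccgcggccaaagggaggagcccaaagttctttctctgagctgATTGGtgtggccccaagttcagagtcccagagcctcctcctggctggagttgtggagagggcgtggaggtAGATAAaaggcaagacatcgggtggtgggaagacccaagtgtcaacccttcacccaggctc
Ucp3, chr7:100472741-100472990, plus strand: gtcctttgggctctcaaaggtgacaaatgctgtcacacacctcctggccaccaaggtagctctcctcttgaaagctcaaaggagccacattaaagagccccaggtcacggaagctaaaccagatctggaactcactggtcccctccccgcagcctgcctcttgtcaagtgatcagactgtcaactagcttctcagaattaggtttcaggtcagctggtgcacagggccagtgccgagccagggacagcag
Alas2, chrX:150547167-150547416, plus strand: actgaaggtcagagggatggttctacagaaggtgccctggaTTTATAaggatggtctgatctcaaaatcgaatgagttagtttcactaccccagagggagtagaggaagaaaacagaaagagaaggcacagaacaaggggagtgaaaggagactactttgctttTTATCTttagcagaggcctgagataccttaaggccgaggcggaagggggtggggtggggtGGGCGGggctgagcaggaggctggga
Ppp5c, chr7:17027915-17028164, minus strand: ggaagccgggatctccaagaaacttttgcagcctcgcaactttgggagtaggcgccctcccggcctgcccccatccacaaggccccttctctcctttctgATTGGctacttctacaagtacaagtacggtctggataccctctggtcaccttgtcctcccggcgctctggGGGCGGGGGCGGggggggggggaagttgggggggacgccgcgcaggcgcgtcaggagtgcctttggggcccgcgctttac

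The RefSeq table held promoters of 86 of the 109 genes, 114 promoters in all of 32851, each from 250 bases before to 50 after the start. The 32851 belong to 27025 genes, while 8952 genes on the arrays reached the signal minimum. The shares below thus do not compare genes of like signal, and the part of the signal minimum in them was not tested. GGGCGG was in 62.3% of the 114 and in 35.7% of all promoters. CCAAT was in 41.2% and 37.4%, CACGTG in 7.89% and 7.15%, and TATAAA in 8.77% and 13.6%. AGATAA was in 11.4% and 11.2%, and GGGTCA, also added after the data were seen, in 15.8% and 13.7%. TGACGTCA and TTATGTAA were each in 1.75%, against 1.79% and 0.938% of all, and the heat shock element was in 0.877% against 0.603%. The palindromic glucocorticoid response element, the direct repeat bound by PPAR with its partner RXR, and the MEF2 element of muscle genes were in 0 of the 114, and in 0.00913%, 0.0396% and 0.164% of all. All motifs were searched on both strands, the MEF2 element holds TATAAA on its other strand, no other listed motif lies whole within another, and a match is a run of letters and not a shown binding site.

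Apoe gave signals of 62.2 and 65.2 on treated, 26.6 and 67.4 on untreated apoE-deficient and 3834 and 3698 on B6 arrays. The 4 apoE-deficient arrays were thus far below both B6 arrays, as the genotype in the labels has it. The treated minus untreated difference was 0.46 ± 0.27 on the log2 scale (SE, n = 2 arrays per group; limma adjusted p = 0.286), and the arrays overlapped.

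Genes that lie near Apoe on its chromosome were among those lower than B6. Within 10 protein-coding genes on either side, 15 of 20 genes were tested and 2 of these, 13.3%, had a probe set that met the rule, against 0.824% of all tested genes. They were Bcam, 3 genes after Apoe, which encodes a laminin-binding adhesion molecule, and Pvr, 9 genes after it, which encodes an adhesion receptor of the nectin-like family. Bcam gave 930 and 930 on treated, 1330 and 1242 on untreated apoE-deficient and 2022 and 2001 on B6 arrays. The 3 groups did not overlap, and Bcam fell by 0.46 ± 0.06 on the log2 scale in treated against untreated hearts (limma adjusted p = 6.09e-04). Pvr gave 100.2 and 85.3, 106.8 and 135, and 206 and 188 on the same groups of arrays. Only 1 of 6 tested Pvr probe sets met the rule, and the untreated minus B6 differences of the other 5 ran from -0.22 to 0.60.

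The rest of the neighbourhood did not go down together. Of the 13 tested neighbours other than Bcam and Pvr, each taken by its brightest probe set, limma called 5 higher and 0 lower in untreated apoE-deficient against B6 hearts, where 3.86% of all genes were called higher and 4.71% lower. At an unadjusted p under 0.05, 1 was lower. In treated against B6 hearts 3 were higher and 0 lower, where 8.83% and 9.90% of all genes were called, and 4 were lower at an unadjusted p under 0.05. Tomm40, the next gene after Apoe, encodes the import pore of the outer mitochondrial membrane and was higher by 0.32 ± 0.06 in untreated apoE-deficient hearts (limma adjusted p = 0.0161) and by 0.33 ± 0.06 in treated hearts (adjusted p = 0.00542). Apoc1, the apolipoprotein gene just before Apoe, gave 271 and 312 on treated, 52.7 and 38.4 on untreated and 44.5 and 50.2 on B6 arrays.

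Farther along the chromosome, Sympk, 39 protein-coding genes before Apoe, and Ppp5c, 71 before, were also lower than B6, and these 2 were picked out after their values were seen. Sympk encodes a scaffold of the messenger RNA cleavage machinery and gave 290 and 265 on treated, 348 and 371 on untreated apoE-deficient and 687 and 686 on B6 arrays. It fell by 0.36 ± 0.09 in treated against untreated hearts (limma adjusted p = 0.0212). That call was lost under spike-in scaling (-0.085), under trimmed-mean scaling (-0.26) and when array medians were centred (-0.19). It was also lost without untreated array 2 (-0.32) or treated array 2 (-0.30). Ppp5c encodes a serine/threonine phosphatase that binds heat shock protein chaperones. Its signals were 261 and 298, 325 and 332, and 1003 and 918, so the means of the apoE-deficient groups were 29.1% (treated) and 34.2% (untreated) of B6. Other Ppp5c probe sets did not show this: in untreated apoE-deficient against B6 hearts they differed by 0.20 and 0.16, upwards. Of the 109 genes, 17 (15.6%) lay on Apoe's chromosome, against 651 (7.27%) of the 8952 genes that reached the signal minimum.

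**Figure D2:**
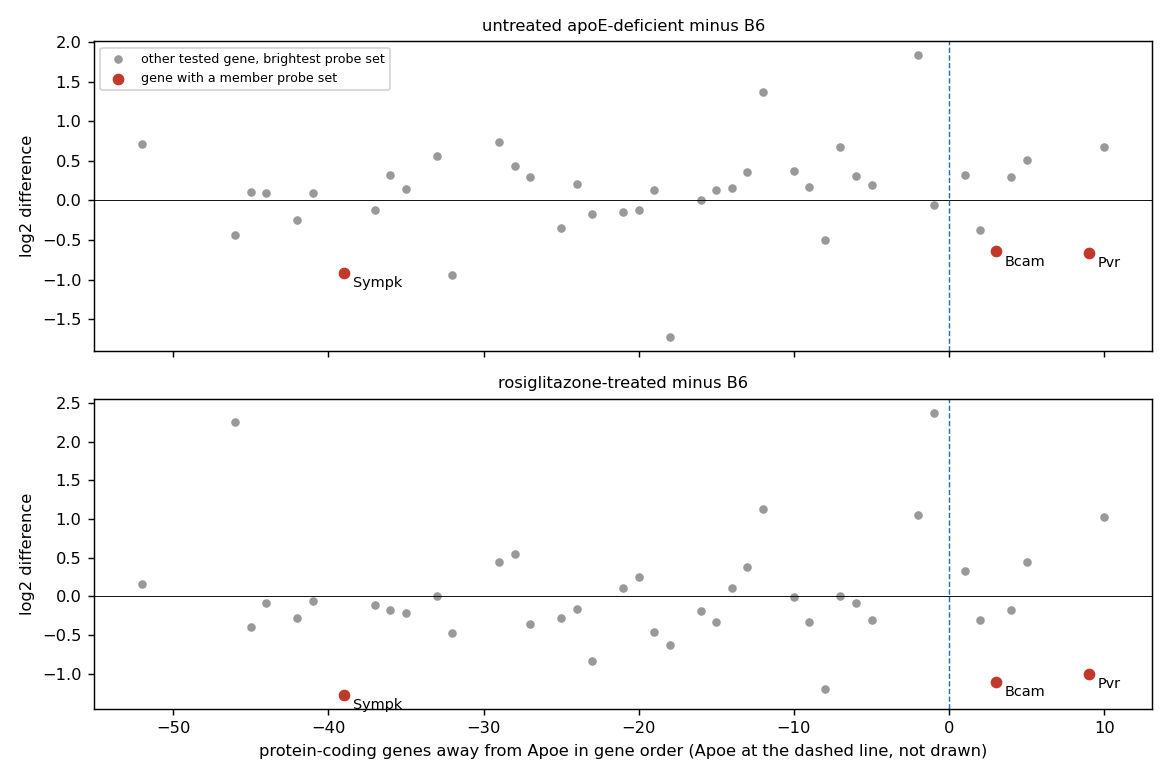
Log2 difference from B6 of tested genes around Apoe, for untreated (top) and treated (bottom) apoE-deficient hearts, against the number of protein-coding genes between each gene and Apoe (dashed line, Apoe itself not drawn). Red points are the probe sets that met the rule and grey points the brightest probe set of other genes. Sympk, Bcam and Pvr lie below 0 in both panels among grey points on both sides of 0, and no gene beyond 10 after Apoe was tested within the range drawn.

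Of 12 probe sets for 9 genes of fatty acid and fuel use, 6 were lower and 1 higher in treated than in untreated apoE-deficient hearts and 5 did not pass the test (limma, adjusted p under 0.05). Of all probe sets with 1 symbol and signal of at least 100, 16.5% were called lower and 14.7% higher in that comparison. The groups by role used here were made after values were seen. Pdk4 gave 1878 and 1979 on treated, 2871 and 2884 on untreated apoE-deficient and 5933 and 5997 on B6 arrays. Its signal was thus highest in B6, lower in untreated apoE-deficient and lowest in treated hearts, with wide gaps and little spread. The untreated apoE-deficient mean was 48.2% and the treated mean 32.3% of B6, and the drop from untreated to treated was called (-0.58 ± 0.04; limma adjusted p = 4.09e-05).

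Ucp3 encodes a carrier of the inner mitochondrial membrane that rises with fatty acid supply in muscle. Its brighter probe set gave 174 and 164 on treated, 316 and 222 on untreated apoE-deficient and 624 and 635 on B6 arrays, and the dimmer one 80.7 and 59.7, 152 and 127, and 325 and 305. Both probe sets showed the same order of groups without overlap. The treated minus untreated difference was -0.62 ± 0.15 (limma adjusted p = 0.0198) and -0.89 ± 0.17 (adjusted p = 0.00695). The first call was lost when array medians were centred (-0.43), under spike-in scaling (-0.33) and without untreated array 1 (-0.37) or either treated array, while the second held in each of these.

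Acot1 encodes a cytosolic thioesterase that frees fatty acids from coenzyme A. Its signals were 43.8 and 39.2 on treated, 119 and 110 on untreated apoE-deficient and 209 and 196 on B6 arrays. The treated mean was 20.5% of B6 and the untreated mean 56.6%, and the fall between them was -1.26 ± 0.17 (limma adjusted p = 0.00117).

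Plin5 encodes the perilipin that coats lipid droplets in oxidative tissue and ties them to mitochondria. It gave 1280 and 1248 on treated, 1426 and 1467 on untreated apoE-deficient and 2035 and 1945 on B6 arrays at its brighter probe set, and 941 and 1017, 1322 and 1341, and 1793 and 1832 at the other. Both orders were the same as for Pdk4. The treated minus untreated differences were -0.19 ± 0.05 (limma adjusted p = 0.0328) and -0.44 ± 0.06 (adjusted p = 9.23e-04), and the smaller one was called in 2 of 6 fits that left out 1 array.

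Txnip, which encodes a thioredoxin-binding protein that restrains glucose uptake, went the other way at 1 probe set. That probe set gave 3341 and 3330 on treated, 2322 and 2325 on untreated apoE-deficient and 4624 and 4797 on B6 arrays. It was higher in treated hearts by 0.52 ± 0.04 (limma adjusted p = 5.43e-05). The second Txnip probe set gave 1350 and 1362, 1479 and 1514, and 2239 and 2361, with a difference of -0.14 ± 0.05 (adjusted p = 0.0921). Both read less than B6 in both apoE-deficient groups, and they disagreed on the order of the treated and untreated groups.

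The other genes of this role did not pass the test between the apoE-deficient groups. Ndufab1, which encodes the acyl carrier protein of mitochondria, was at 67.9% of B6 in untreated and 63.1% in treated hearts. Lclat1, an acyltransferase that remodels cardiolipin, was at 72.4% and 75.8%, the smallest loss in treated hearts among the 116.

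The genes of the fatty acid oxidation pathway itself held no probe set that met the rule. Of 21 tested genes of a list of 23, limma called 3 lower and 1 higher in untreated apoE-deficient against B6 hearts, with a median of -0.06, where the median of all genes was 3.67e-04. In treated against untreated hearts 12 were lower and 2 higher, with a median of -0.20 against -0.03 for all genes, of which 12.3% were called lower and 11.5% higher. Cpt1a, 1 form of the gate enzyme of fatty acid entry into mitochondria, differed by -0.41 ± 0.08 between untreated apoE-deficient and B6 hearts (limma adjusted p = 0.0232). It did not pass the test between the treated and untreated groups (0.21 ± 0.08; adjusted p = 0.126). Cd36, the fatty acid transporter of the cell surface, was -0.17 ± 0.04 against B6 in untreated hearts (adjusted p = 0.033) and rose by 0.40 ± 0.04 from untreated to treated (adjusted p = 1.46e-04). Slc27a1, another fatty acid transporter, fell by 0.63 ± 0.07 from untreated to treated (adjusted p = 3.50e-04).

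Of 7 red cell and heme genes, 3 were lower in treated than in untreated apoE-deficient hearts and 4 did not pass the test. Among the 14033 probe sets with 1 symbol and enough signal, 16.5% were called lower and 14.7% higher. Alas2, the first enzyme of heme synthesis in red cell precursors, gave 99.2 and 63.0 on treated, 247 and 229 on untreated apoE-deficient and 542 and 582 on B6 arrays. Hbb-b2, a beta globin of adult red cells, gave 37.4 and 33.6, 68.5 and 107, and 185 and 182. At these probe sets both showed 3 separate groups in the order B6, untreated, treated. The treated minus untreated difference was -1.46 ± 0.18 for Alas2 (limma adjusted p = 5.91e-04) and -1.06 ± 0.23 for Hbb-b2 (adjusted p = 0.0118). Leaving out either treated array ended the call for Hbb-b2 (-1.08 and -0.996), which met the rule under quantile normalization of the linear signals alone. Its probe set can also bind transcripts of other beta globin genes. A dimmer Hbb-b2 probe set, with a mean signal of 69.7, differed from B6 by -0.02 in untreated and -0.62 in treated hearts. It read 130 and 42.2 on untreated apoE-deficient and 82.2 and 71.9 on B6 arrays. Its treated minus untreated difference was not called (-0.60 ± 0.40; limma adjusted p = 0.343).

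Bpgm makes the phosphoglycerate that loosens oxygen from hemoglobin, and its signals were 140 and 139 on treated, 201 and 191 on untreated apoE-deficient and 282 and 271 on B6 arrays. The difference of -0.46 ± 0.12 (limma adjusted p = 0.0258) was called in 2 of 6 fits that left out 1 array. The other 2 Bpgm probe sets of sufficient signal were also lower on every apoE-deficient array, by 1.26-fold and 1.27-fold, just short of the rule. Slc25a37, the iron importer of mitochondria, gave 134 and 154, 195 and 181, and 313 and 326. Its treated arrays were below its untreated arrays, and the difference of -0.36 ± 0.13 did not pass (adjusted p = 0.0752).

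Fech puts iron into the ring in the last step of heme synthesis. It gave 1044 and 972 on treated, 1014 and 955 on untreated apoE-deficient and 1522 and 1390 on B6 arrays, and the apoE-deficient groups overlapped (0.03 ± 0.07; limma adjusted p = 0.793). The other 2 Fech probe sets were not below B6 on all 4 apoE-deficient arrays. The brighter of them, with a mean signal of 2750, differed from B6 by -0.03 in untreated and -0.47 in treated hearts, and the one with a mean of 893 by -0.18 and -0.06. Tent5c, a poly(A) polymerase, gave 79.1 and 35.4, 93.0 and 90.2, and 266 and 244, with a treated array that was far from its partner. Mkrn1, a ubiquitin ligase, was at 60.5% of B6 in untreated and 46.3% in treated hearts.

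Of 9 red blood cell markers, 3 were tested, and the other one, the membrane anion exchanger Slc4a1, read 35.3 and 9.0 on treated, 20.5 and 61.8 on untreated apoE-deficient and 82.5 and 66.0 on B6 arrays. The summed signal of the 3 markers was 106 to 172 on treated, 336 to 398 on untreated apoE-deficient and 810 to 830 on B6 arrays, and none of the 3 was at 0. Most of that sum came from Alas2 and Hbb-b2, which the rule chose for low signal on every apoE-deficient array. The lower sum against B6 was thus largely set by that choice. Slc4a1, which did not meet the rule, was not called by limma in untreated or treated hearts against B6. In treated hearts it was lower at an unadjusted p under 0.05. The part of residual blood in the results on heme and globin genes was not tested. In a whole heart, fewer cells of a type and less RNA per cell cannot be told apart.

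**Figure D3:**
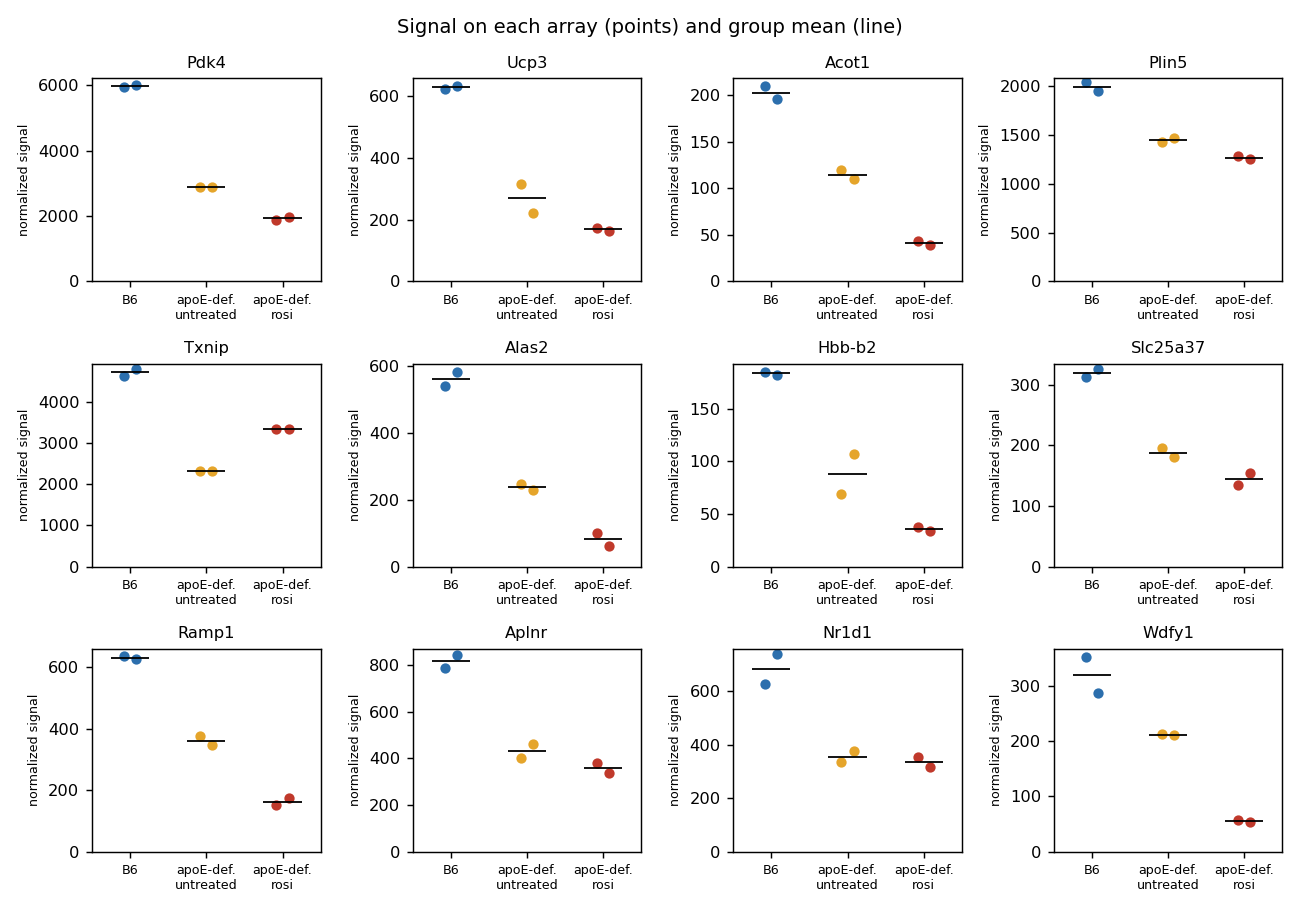
Quantile-normalized signal of 12 genes on each array (points, 2 per group) with the group mean (line), each gene at its brightest probe set that met the rule, on axes that start at 0. Pdk4, Ucp3, Acot1, Plin5, Alas2, Hbb-b2, Slc25a37, Ramp1 and Wdfy1 step down from B6 through untreated to treated hearts, Txnip is lowest in untreated hearts, and Nr1d1 overlaps between the 2 apoE-deficient groups.

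Of 19 probe sets for 18 receptor, ligand and signalling genes, 3 were lower in treated than in untreated apoE-deficient hearts and 16 did not pass. Among the 14033 probe sets with 1 symbol and enough signal, 16.5% were called lower and 14.7% higher. Ramp1, the partner protein that turns a calcitonin receptor-like protein into the receptor for the vasodilator CGRP, gave 152 and 174 on treated, 375 and 347 on untreated apoE-deficient and 635 and 625 on B6 arrays. It fell by 1.10 ± 0.10 from untreated to treated (limma adjusted p = 1.46e-04). Tesc, a calcium-binding protein, gave 885 and 760, 1153 and 1215, and 1751 and 1641, with a difference of -0.52 ± 0.08 (adjusted p = 0.00191). A brighter Tesc probe set, with a mean signal of 3294, differed from B6 by -0.17 in untreated and -0.67 in treated hearts. Its treated minus untreated difference was -0.50 ± 0.04 (limma adjusted p = 9.24e-05). Mapk14, the stress kinase p38 alpha, differed by -0.19 ± 0.06 (adjusted p = 0.049), a call that did not hold when 1 array was left out (-0.23 to -0.16). Another Mapk14 probe set, with a mean signal of 204, had a treated minus untreated difference of -0.62 ± 0.12 (limma adjusted p = 0.00669). It differed from B6 by 0.17 in untreated and -0.45 in treated hearts.

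Aplnr, the receptor for the peptide apelin, gave 379 and 336 on treated, 402 and 461 on untreated apoE-deficient and 788 and 845 on B6 arrays. Its treated arrays were below its untreated arrays, and the difference did not pass (-0.26 ± 0.10; limma adjusted p = 0.0982). A dimmer Aplnr probe set differed by 0.03 in untreated and -0.87 in treated hearts against B6. Adra1b, an alpha-1 adrenergic receptor, gave 93.0 and 87.0, 104 and 132, and 266 and 190, with a wide gap between the B6 arrays.

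At the probe sets that met the rule, the other receptors and ligands did not pass the test between the apoE-deficient groups. Epha4, a receptor for ephrins, gave 127 and 124 on treated, 104 and 90.3 on untreated apoE-deficient and 199 and 178 on B6 arrays, with treated above untreated (0.33 ± 0.16; limma adjusted p = 0.177). A brighter Epha4 probe set, with a mean signal of 338, differed from B6 by -1.04 in untreated and -0.01 in treated hearts. That probe set rose by 1.03 ± 0.13 from untreated to treated (limma adjusted p = 6.67e-04). Lgr6, a receptor for R-spondins, gave 202 and 203, 244 and 236, and 383 and 408, with treated below untreated (-0.23 ± 0.10; adjusted p = 0.154). Corin, the protease that activates atrial natriuretic peptide, gave 2071 and 1833 on treated, 2096 and 2037 on untreated apoE-deficient and 2745 and 2822 on B6 arrays. Fgf16, a growth factor of heart muscle, gave 163 and 174, 185 and 185, and 287 and 296. Cxcl1, a chemokine for neutrophils, was at 50.9% of B6 in untreated and 48.6% in treated hearts at the probe set that met the rule, while another Cxcl1 probe set was 0.69 higher on the log2 scale in untreated hearts. Magi3, a membrane scaffold, met the rule at 2 probe sets, at 67.2% and 70.2% of B6 in untreated hearts.

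Of 9 probe sets for 8 channel and transporter genes, 1 was lower in treated hearts and 8 did not pass. The shares among the 14033 probe sets were 16.5% lower and 14.7% higher. Slc7a1, which brings arginine and lysine into cells, gave 460 and 490 on treated, 659 and 673 on untreated apoE-deficient and 950 and 1007 on B6 arrays and fell by 0.48 ± 0.07 (limma adjusted p = 0.00189). Kcne1, the small subunit that slows the Kcnq1 potassium channel, gave 64.6 and 70.1, 104 and 95.3, and 197 and 188. Its 3 groups were separate, and the treated minus untreated difference was -0.50 ± 0.17 (adjusted p = 0.0657).

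Kcnq1 itself was lower in untreated apoE-deficient than in B6 hearts by less than the rule asks (-0.35 ± 0.07; limma adjusted p = 0.0159). Of 17 tested ion channel genes other than Kcne1, limma called 6 lower in untreated apoE-deficient against B6 hearts, where 4.71% of all genes were called lower. Slc41a3, a magnesium transporter, met the rule at 2 probe sets, and at 1 of them the untreated arrays read 245 and 573, far apart. Slc38a1 and Slc38a2, neighbouring genes for glutamine transporters, both met the rule, at 68.9% and 63.4% of B6 in untreated hearts. A far brighter Slc38a2 probe set, with a mean signal of 2495 against 182, differed from B6 by 0.12 in untreated and -0.15 in treated hearts.

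Of 16 genes of transcription and chromatin, limma called 0 between the treated and untreated groups at an adjusted p under 0.05, and 1, Auts2, had an unadjusted p under 0.05 (named after its value was seen). Their differences ran from -0.24 to 0.33. Among the 14033 probe sets with 1 symbol and enough signal, 31.1% were called. Nr1d1, the clock repressor REV-ERB alpha, gave 355 and 318 on treated, 336 and 376 on untreated apoE-deficient and 627 and 738 on B6 arrays. The apoE-deficient arrays overlapped, and all lay far below B6.

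Of 17 tested clock genes other than Nr1d1, limma called 4 higher and 0 lower in untreated apoE-deficient than in B6 hearts, and 1 was lower at an unadjusted p under 0.05. The 4 were Per2 (0.92 ± 0.15; adjusted p = 0.0094), Ciart (0.57 ± 0.13; adjusted p = 0.0338), Tef (0.46 ± 0.06; adjusted p = 0.00259) and Dbp (0.38 ± 0.05; adjusted p = 0.00233). In treated against B6 hearts limma called 0 of the 17, and 6 had an unadjusted p under 0.05. The time of day at which hearts were taken is not given in the labels, and its part was not tested.

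The remaining chromatin and transcription genes were at 49.5% to 73.2% of B6 in untreated hearts. Dnmt3a, a DNA methyltransferase, gave 257 and 245 on treated, 231 and 225 on untreated apoE-deficient and 407 and 444 on B6 arrays. Crebbp, a histone acetyltransferase, gave 343 and 402, 396 and 344, and 570 and 580 at the probe set that met the rule, while a brighter one differed from B6 by 0.06 in untreated and -0.32 in treated hearts. Cited2, a cofactor that binds the same acetyltransferase, gave 710 and 718, 751 and 781, and 1167 and 1110. For Crebbp the apoE-deficient arrays overlapped, Dnmt3a read slightly more and Cited2 slightly less on the treated than on the untreated arrays, and each lay far below B6 at these probe sets.

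Of 7 genes of RNA processing and nuclear transport, 1 was higher in treated hearts and 6 did not pass. The shares among the 14033 probe sets were 14.7% higher and 16.5% lower. Hnrnpab, an RNA-binding protein, gave 1713 and 1538 on treated, 1379 and 1279 on untreated apoE-deficient and 2465 and 2490 on B6 arrays, and rose by 0.29 ± 0.06 (limma adjusted p = 0.014), a call kept in 4 of 6 fits that left out 1 array. Its other 4 probe sets of sufficient signal differed from B6 by -0.11 to 0.22 in untreated hearts, so the loss is seen at 1 of 5. Malat1, a long nuclear RNA, gave 998 and 1033, 1046 and 1120, and 1546 and 1609. A brighter Malat1 probe set just short of the rule differed from B6 by -1.299 in untreated and -0.49 in treated hearts on the log2 scale. Clk1, a kinase of splicing factors, was at 66.6% and 64.4% of B6.

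Of 10 probe sets for muscle, matrix and adhesion genes, 1 was higher in treated hearts and 9 did not pass. The shares among the 14033 probe sets were 14.7% higher and 16.5% lower. Tnnt2, cardiac troponin T, gave 198 and 208 on treated, 142 and 133 on untreated apoE-deficient and 302 and 308 on B6 arrays, a rise of 0.53 ± 0.12 from untreated to treated (limma adjusted p = 0.0134), lost without either treated array (0.56 and 0.49). This probe set is dim for the gene. The other 2 Tnnt2 probe sets had mean signals of 18973 and 18696 and differed from B6 by -0.10 and -0.08 in untreated hearts. Ecm2, a matrix protein, gave 146 and 115, 121 and 139, and 250 and 272, and Col4a5, a basement membrane collagen, was at 63.5% and 51.8% of B6. Another Col4a5 probe set of like brightness, with a mean signal of 327, differed from B6 by -0.28 in untreated and -0.11 in treated hearts.

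Among the 14033 probe sets, 14.7% were called higher and 16.5% lower in treated than in untreated apoE-deficient hearts. Of 10 probe sets for cell death, cell cycle and protein turnover genes, 2 were higher in treated hearts and 8 did not pass. Both were for Bcl2l11, the death-promoting protein BIM. One gave 318 and 321 on treated, 216 and 185 on untreated apoE-deficient and 456 and 485 on B6 arrays, and the other 207 and 269, 162 and 93.3, and 379 and 373. The rise from untreated to treated was 0.65 ± 0.11 (limma adjusted p = 0.00313) and 0.88 ± 0.22 (adjusted p = 0.0228), and treated hearts stayed below B6 at both. The second call was kept in 4 of 6 fits that left out 1 array. Hspa5, the chaperone BiP, met the rule only at a probe set with a mean far below its other 2. Those differed from B6 by 0.08 and 0.35 in untreated and by -0.59 and -0.11 in treated hearts. Their treated minus untreated differences were -0.67 ± 0.04 (limma adjusted p = 1.20e-05) and -0.46 ± 0.07 (adjusted p = 0.00253).

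Among the other genes, Wdfy1, an endosomal adaptor protein, had the steepest fall from untreated to treated of the 116. Its 2 probe sets gave 57.7 and 54.3 on treated, 212 and 211 on untreated apoE-deficient and 352 and 286 on B6 arrays, and 33.1 and 39.1, 143 and 121, and 203 and 190. The treated minus untreated differences were -1.73 ± 0.15 (limma adjusted p = 8.75e-05) and -1.60 ± 0.18 (adjusted p = 4.18e-04). A further Wdfy1 probe set, which missed the rule at 1.24-fold, differed from B6 by -0.40 in untreated and -2.19 in treated hearts.

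Pisd-ps3 gave 112 and 102 on treated, 118 and 123 on untreated apoE-deficient and 644 and 668 on B6 arrays. It was low on every apoE-deficient array. Of its other 3 probe sets, a dim one with a mean signal of 57.0 was also low, with differences from B6 of -2.21 in untreated and -2.30 in treated hearts. The other 2 differed from B6 by -0.55 and 0.08 in untreated and by 0.49 and 0.21 in treated hearts, and signal of a pseudogene can come from its parent gene. Lgals4, a galectin, gave 59.5 and 64.0, 95.5 and 85.9, and 192 and 223. Cog8, a subunit of a Golgi tethering complex, was at 56.5% of B6 in untreated and 26.5% in treated hearts, and its other 2 probe sets differed from B6 by 0.32 and 0.08 in untreated hearts.

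Over all 116, limma called 27 between treated and untreated apoE-deficient hearts, or 23.3%, with 21 lower and 6 higher in treated hearts. The share of all 27022 tested probe sets called was 19.8%. Among the 14033 of like signal and with 1 symbol it was 31.1%, with 16.5% lower and 14.7% higher. The share called lower, 18.1%, was thus near that of probe sets of like signal, and the share called higher, 5.17%, was below it. The split between lower and higher depends on the scaling: it was 14 and 11 when array medians were centred, 19 and 7 with trimmed-mean scaling, and 14 and 19 when spike-ins set the scale.

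The median difference of the 116 was -0.08, against -0.05 for probe sets of like signal and -0.02 for all tested. The 89 that were not called had differences from -0.66 to 0.50 and a median SE of 0.12, and 41 of the 116 were not called and differed by less than 0.1. For 53 (45.7%) both treated arrays were below both untreated arrays, against 39.1% of probe sets of like signal, and for 19 (16.4%) both were above, against 30.9%. The ceiling of the rule bears on these shares too. Of the 27 called, 15 were called in each of the 6 fits that left out 1 array and under 4 other scalings, 13 lower and 2 higher. The 13 included Pdk4, Acot1, Alas2, Ramp1, Bcam, Tesc, Slc7a1, both Wdfy1 probe sets and 1 each of Ucp3 and Plin5, and the 2 were Txnip and Bcl2l11. On the deposited signals, not among the 4 scalings, Pdk4 (0.54), Bcam (0.73), Tesc (0.68), Slc7a1 (0.77) and this Plin5 probe set (0.75) were called higher in treated hearts. Alas2 (-0.20), Acot1 (-0.11) and Wdfy1 (-0.51 and -0.49) stayed lower there without a call. Without the intensity trend, the calls for Bcam, Tesc, Slc7a1 and these Ucp3 and Plin5 probe sets were lost.

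Markers of other tissues also differed between these groups. Of 9 tested lung and mesothelium markers 5 were called higher in treated than in untreated hearts, with a summed signal of 15397 to 16284 against 706 to 783 (644 to 685 in B6). Of 9 white adipocyte markers 5 were higher and 1 lower (37215 to 37831 against 19144 to 19301, and 19356 to 20263 in B6). Of 7 lymphocyte markers 3 were higher and 1 lower (2178 to 2543 against 252 to 315, and 275 to 287 in B6). Of 7 atrial markers 6 were higher and 1 lower (45645 to 45775 against 19301 to 19438, and 33124 to 33278 in B6). In untreated hearts against B6, limma called 5 atrial, 4 white adipocyte, 1 lymphocyte and 0 lung and mesothelium markers lower. It called 0 of them higher, and of all genes 4.71% were called lower and 3.86% higher. None of these lists holds a gene of the 109. Their part in the treated minus untreated results and in the differences from B6 was not tested.

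**Figure D4:**
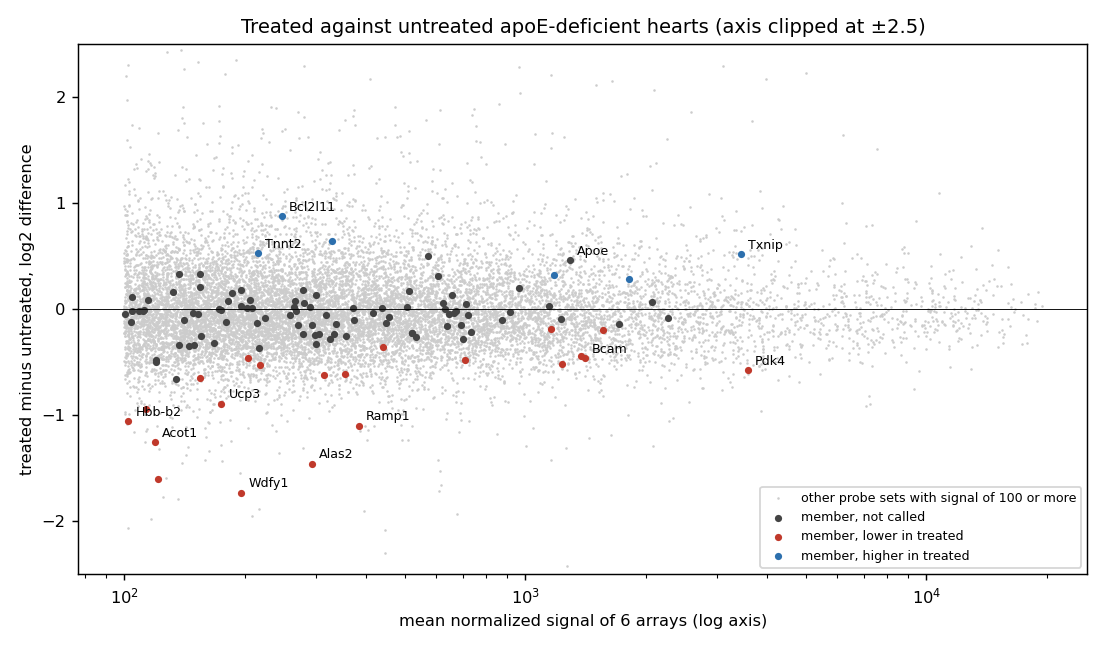
Treated minus untreated log2 difference against mean normalized signal (log axis) for the probe sets that met the rule (black: not called; red: lower; blue: higher in treated, by limma at adjusted p under 0.05) and for other probe sets with 1 symbol and signal of at least 100 (grey). Wdfy1, Alas2, Acot1, Ramp1 and Hbb-b2 lie below -1, Bcl2l11 and Txnip lie above 0.5, and most points lie between -0.4 and 0.2.

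Other probe sets of the same genes give a partly separate reading of the difference from B6, on the same arrays. Of 107 such probe sets with signal of at least 100, in 59 genes, 47 (43.9%, in 34 genes) were lower on all 4 apoE-deficient arrays than on both B6 arrays at any fold. That was so for 14.6% of the 14033. Only 2 of the 107 were higher on all 4, against 11.3% of the 14033. The medians of the 107 were -0.18 in untreated and -0.28 in treated hearts, smaller than the medians of -0.64 and -0.68 of the 116 that the rule picked.

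Genes whose other probe sets came close to the rule included Cited2 (1.29-fold), Slc7a1 (1.28-fold), Malat1 (1.28-fold), Bpgm (1.26-fold and 1.27-fold), Neo1 (1.24-fold) and Zbtb20 (1.25-fold at 1 of 7 others). The probe set that met the rule was the brightest of its gene in 75 of 109 genes. In the other 34 genes the brightest probe set was below B6 on all 4 apoE-deficient arrays in 12 and not in 22, and in 16 of the 34 its untreated minus B6 difference was above 0. The 22 include Tnnt2, Ppp5c, Hspa5, Hnrnpab, Fech, Slc38a2, Crebbp, Cog8, Cxcl1, Memo1 and Czib. For Ndufab1 the brightest probe set had a mean signal of 9870, and its untreated minus B6 difference was 0.0046. For Ube2b, a ubiquitin-conjugating enzyme, the probe set that met the rule had a mean signal of 115, and the other 2, with means of 3321 and 2683, differed from B6 by 0.10 and -0.03 in untreated hearts.

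**Figure D5:**
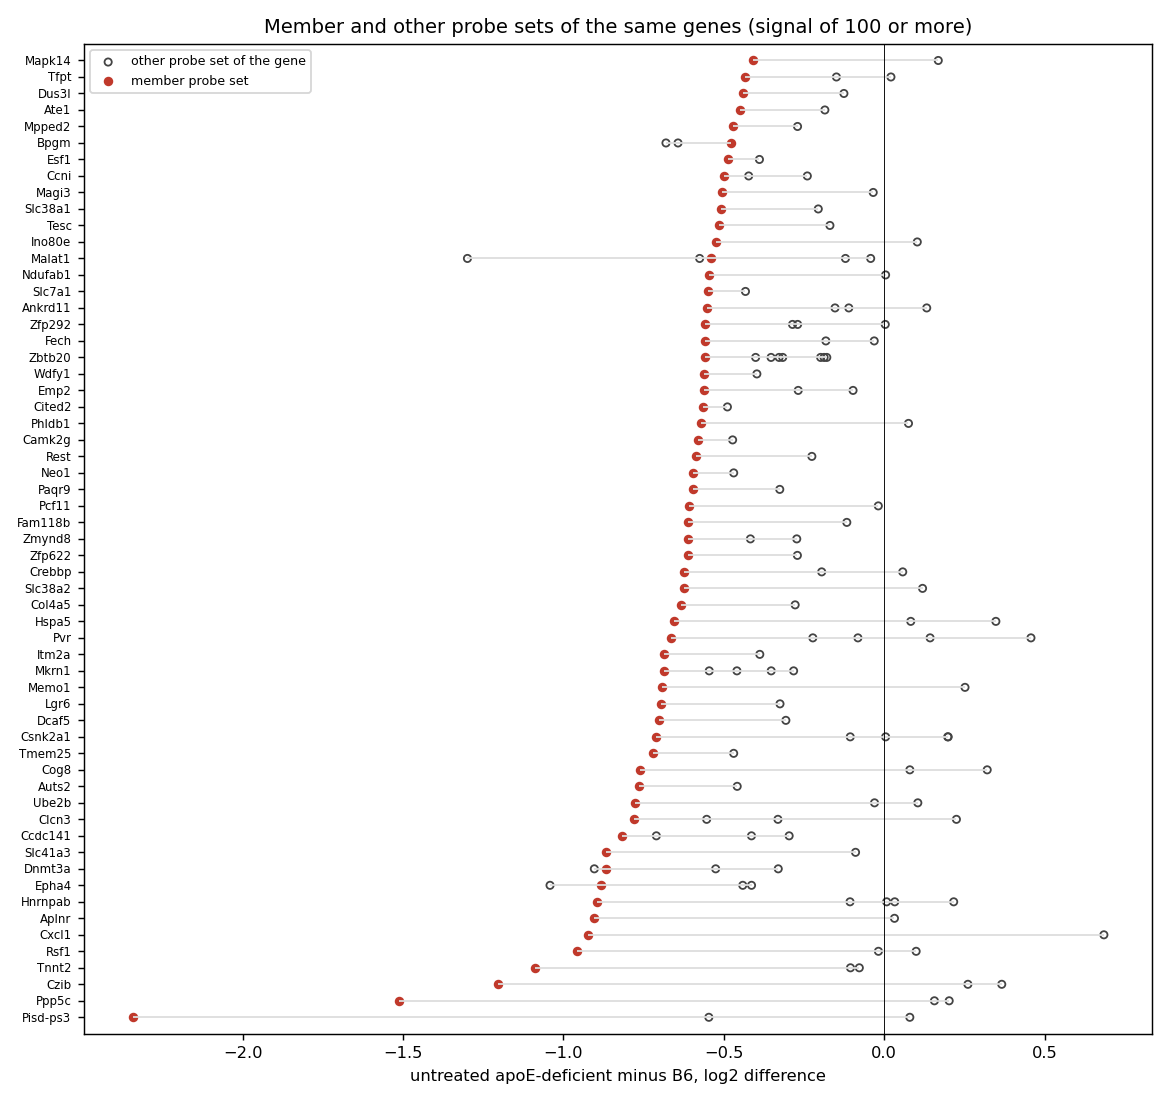
Untreated apoE-deficient minus B6 log2 difference of the brightest probe set that met the rule (red) and of the other probe sets with signal of at least 100 (open circles) for the 59 genes that have both, joined by a grey line per gene. Of the 107 open circles, 6 lie left of the red point, in Malat1, Bpgm, Epha4 and Dnmt3a, and the rest lie to its right, some of them above 0.

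At the edge of the rule, the 4 probe sets just inside were Nup98 (1.303-fold), Tfpt (1.304-fold), Memo1 (1.307-fold) and Czib (1.308-fold). Just outside were Snhg8 (1.29997-fold), Masp1 (1.299-fold), Smim20 (1.299-fold) and Agpat5 (1.297-fold). Masp1 gave 224 and 221 on treated, 216 and 210 on untreated apoE-deficient and 293 and 292 on B6 arrays, and Nup98 gave 238 and 305, 309 and 254, and 406 and 403. The arrays of Masp1, just outside, were closer together within each group than those of Nup98, just inside. Czib gave 122 and 32.6 on the untreated arrays, far apart for 1 group.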

How the data were processed

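The authors' deposited values are linear intensities, 1 for each probe set on each array, from GCOS per the submitters' processing notes. The version of GCOS and its settings for background and scaling were not given in the sources used here. RNA was isolated from heart tissue with a column kit, per the labels' protocols. The intensities of 45037 non-control probe sets on 6 arrays were quantile-normalized on the linear scale, a pseudocount of 11.1 (the 25th percentile) was added, and log2 was taken, so differences of dim probe sets are understated. Of these, 34945 had 1 symbol in the given annotation, which can be old, 932 several and 9160 none; 34741 symbols were updated through a GRCm38.p6 gene table, used for names and gene order only. Probe sets with a mean log2 above 4.99 (the 40th percentile), 27022 in all, entered lmFit and eBayes of limma 3.58.1 (R 4.3.3, intensity trend on), fitted once over the 3 groups (residual degrees of freedom 3), with Benjamini-Hochberg adjustment over all 27022. Calls are at an adjusted p under 0.05. All 116 probe sets passed that filter. The fit was tested on simulated data. A gene outside the 109 is represented by its brightest tested probe set (13236 genes). Every difference from B6 that is given with a p or counted as called is for a gene outside the 109. The comparisons share control arrays: the untreated apoE-deficient arrays enter both the difference from B6 and the treated minus untreated difference. The members, the 42 gene lists and the roles were chosen with earlier results of these data known.

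The rule for named genes took Apoe, the 14 with the largest loss, the 6 largest called differences in each direction, up to 3 of each list, genes with 2 probe sets, those within 10 genes of Apoe, and the 4 just inside and outside the threshold. Other genes named were chosen after their values were seen. Probe sets with clone or Gm names were counted and not described. Alternatives were 5 other scalings, other fold and signal minimums, pseudocounts, filters, no trend, fewer arrays and a replicate block. Precision is limited by 2 arrays per group.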

Additional observations from a re-analysis of the deposited data

How the results depend on the processing

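The number of probe sets that met the rule, 116, moved to 28 with spike-in scaling, 11 on the deposited signals, 33 at a fold of 1.5 and 262 at a fold of 1.2, and ran from 132 to 261 when 1 array was left out. It was highest without B6 array 1 (261) and B6 array 2 (199), then without untreated array 2 (184) and array 1 (177), since fewer arrays have to satisfy the rule. Between treated and untreated hearts, 27 of the 116 were called, against 107 on the deposited signals (107 higher, 0 lower) and 12 without the intensity trend, 9 lower and 3 higher. Those called higher were 11 when array medians were centred and 19 under spike-in scaling. Leaving out 1 array gave 18 to 25 calls, 15 to 19 lower and 3 to 7 higher, the lowest without treated array 1. Over all tested probe sets, the calls in treated against untreated hearts were 5355, and moved to 22739 on the deposited signals and 1653 without the trend, with 2933 (without treated array 1) to 5018 when 1 array was left out. In untreated apoE-deficient against B6 hearts they were 1909, and moved to 3039 with spike-in scaling and 10 without the trend, with 617 (without B6 array 2) to 1730, and 641, 878 and 964 without B6 array 1, untreated array 1 and untreated array 2. In treated against B6 hearts they were 4066, and moved to 7604 with spike-in scaling, 18723 on the deposited signals and 626 without the trend, with 2205 (without B6 array 2) to 4104, and 2275 and 2624 without treated array 1 and B6 array 1. The share of calls that were higher was 50.5% in treated against untreated hearts, 64.7% when array medians were centred, 79.6% under spike-in scaling and 99.9% unscaled. In untreated apoE-deficient against B6 hearts it was 44.8%, 25.7%, 80.9% and 4.6% under the same settings, and in treated against B6 hearts 49.6%, 45.8%, 92.5% and 99.7%. Spike-in scaling moved the median of all differences to 0.18, 0.11 and 0.28 in these 3 comparisons.

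On the deposited signals, whose median treated minus untreated difference was 1.14, the difference turned upwards for Pisd-ps3 (1.11), Ppp5c (1.06), Pdk4 (0.54), Lgals4 (0.71), Ucp3 (0.67), Sympk (0.93), Kcne1 (0.72), Ecm2 (1.26), Aplnr (1.02), Hbb-b2 (0.019), Ramp1 (0.18), Hspa5 (1.03), Nr1d1 (1.21), Ndufab1 (1.19), Plin5 (0.98), Adra1b (0.90), Cxcl1 (1.21), Malat1 (1.11), Clk1 (1.21), Mapk14 (1.01), Magi3 (1.198), Bcam (0.73), Pvr (0.91), Memo1 (1.203), Tfpt (1.04) and Nup98 (1.23). That of Czib was -0.69 without untreated array 2 and 0.94 without untreated array 1. Replicate numbers do not pair the samples: deviations of same-numbered arrays correlated with r of -0.0063, 0.033 and 0.020. With the replicate number as a block, 27 of the 116 were called, 20 lower and 7 higher, and 5344 of all. These values come from 18 alternative settings, and the causes were not tested beyond what each setting changes by construction.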
